A study of Mus musculus with 10 samples.

Results

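The glutathione enzyme genes of the nucleus accumbens (NAc) were compared between the inbred mouse strains C57BL/6J, called B6 here, and DBA/2J, called D2. They were defined by gene symbol as the protein-coding genes of glutathione synthesis and recycling (Gclc, Gclm, Gss, Gsr), of its breakdown (Ggct, Ggt1, Ggt5, Ggt7), the glutathione S-transferases of the alpha, kappa, mu, omega, pi, theta and zeta classes, Gstcd, the membrane transferases (Mgst) and the glutathione peroxidases (Gpx). The annotation held 44 such genes, and 38 of them were among the 29883 genes of the deposited count table. The table held no gene whose median count over the libraries was below 0.5. The 6 genes without a row, Gsta1, Gsta2, Gsta5, Gsta13, Gpx5 and Gstp3, were not analysed here.

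The NAc is the ventral part of the striatum. Tissue punches came from 5 B6 and 5 D2 mice, all male, ethanol-naive and about 9 weeks old, and each mouse gave 1 poly-A RNA library. Both are inbred strains carrying no transgene, so each mouse is a replicate of its strain, and the strains differ at many loci at once. Reads of both strains were aligned to the B6 genome.

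Glutathione is a tripeptide of glutamate, cysteine and glycine and the most abundant small thiol of the cell. Glutamate-cysteine ligase, made of the catalytic subunit Gclc and the modifier subunit Gclm, joins glutamate to cysteine, and Gss adds glycine. Peroxidases oxidize glutathione while reducing peroxides, Gsr returns the oxidized form with NADPH, transferases join glutathione to electrophiles, and gamma-glutamyl transferases start its breakdown outside the cell. In brain, astrocytes are the main source of glutathione and supply its precursors to neurons.

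The libraries held 96977262 to 111468080 counts in B6 and 104443243 to 116776714 in D2 (exact permutation test, p = 0.063, smallest possible p = 0.0079). Mean log2 CPM of 8 striatal neuron markers was 8.42 to 8.79 in B6 and 8.20 to 8.47 in D2 (exact permutation p = 0.0238, adjusted over 9 marker lists 0.107). The B6 libraries 3 and 5 stood apart. Their mean log2 CPM of 6 cortex neuron markers was 5.46 and 5.38. It was 1.76 to 2.79 in the other B6 libraries and 3.20 to 4.46 in D2. These 2 were also the highest B6 libraries for oligodendrocyte (9.10 and 9.11), endothelium (4.76 and 4.79) and blood markers (3.66 and 3.69). They were the lowest for striatal neuron (8.42 and 8.42) and choroid plexus markers (-0.56 and -0.58). The cortex marker covariate used below took in the 6 cortex markers only. None of the 6 cortex markers differed between strains past the threshold (edgeR), and the list gave an exact permutation p of 0.492. Astrocyte markers overlapped between strains at 7.53 to 7.62 in B6 and 7.49 to 7.64 in D2, with 1 of 7 higher and 3 lower. Oligodendrocyte markers were at 8.64 to 9.11 in B6 and 8.20 to 8.74 in D2, with 4 of 6 lower in D2, and blood markers were at 3.17 to 3.69 in B6 and 1.44 to 2.22 in D2, with 3 of 5 lower. The blood genes did not move together. Hba-a2 (log2 fold change -5.47), Hbb-bt (-1.27) and Alas2 (-0.59) were lower in D2. Hba-a1 (0.08, edgeR adjusted p = 0.78) and Hbb-bs (-0.36, edgeR adjusted p = 0.13) did not pass the threshold. The part of these marker differences in the results that follow was not tested, except where a fit with a marker level as a covariate is given. In tissue RNA, fewer cells of a type and less RNA per cell cannot be told apart.

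Levels were compared between genes as normalized counts per kb of exon, the mean over the 10 mice. The exon length took in all annotated exons of a gene. It was 1281 bases for Gstm5 and 2515 for Gstm1, against 945 and 1380 in their canonical transcripts, so the order of genes depends on the length used. Gpx4, the peroxidase that reduces lipid hydroperoxides within membranes, was the most abundant member at 8433 per kb. The mu class transferases Gstm5 (5986 per kb) and Gstm1 (5238) followed, and then the pi class transferase Gstp1 (4393), the cytosolic peroxidase Gpx1 (3847) and Ggt7 (1858), a member of the gamma-glutamyl transferase family. Of the rate-limiting ligase, Gclc stood at 1372 per kb and Gclm at 689. At the other end, Gstt4 stood at 0.987 per kb. In the plot of levels by class, members of 1 class were spread widely: within the mu class, Gstm5 had a mean of 8403 normalized counts in B6 while Gstm3 had 0 to 7 raw counts per B6 library.

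**Figure D1:**
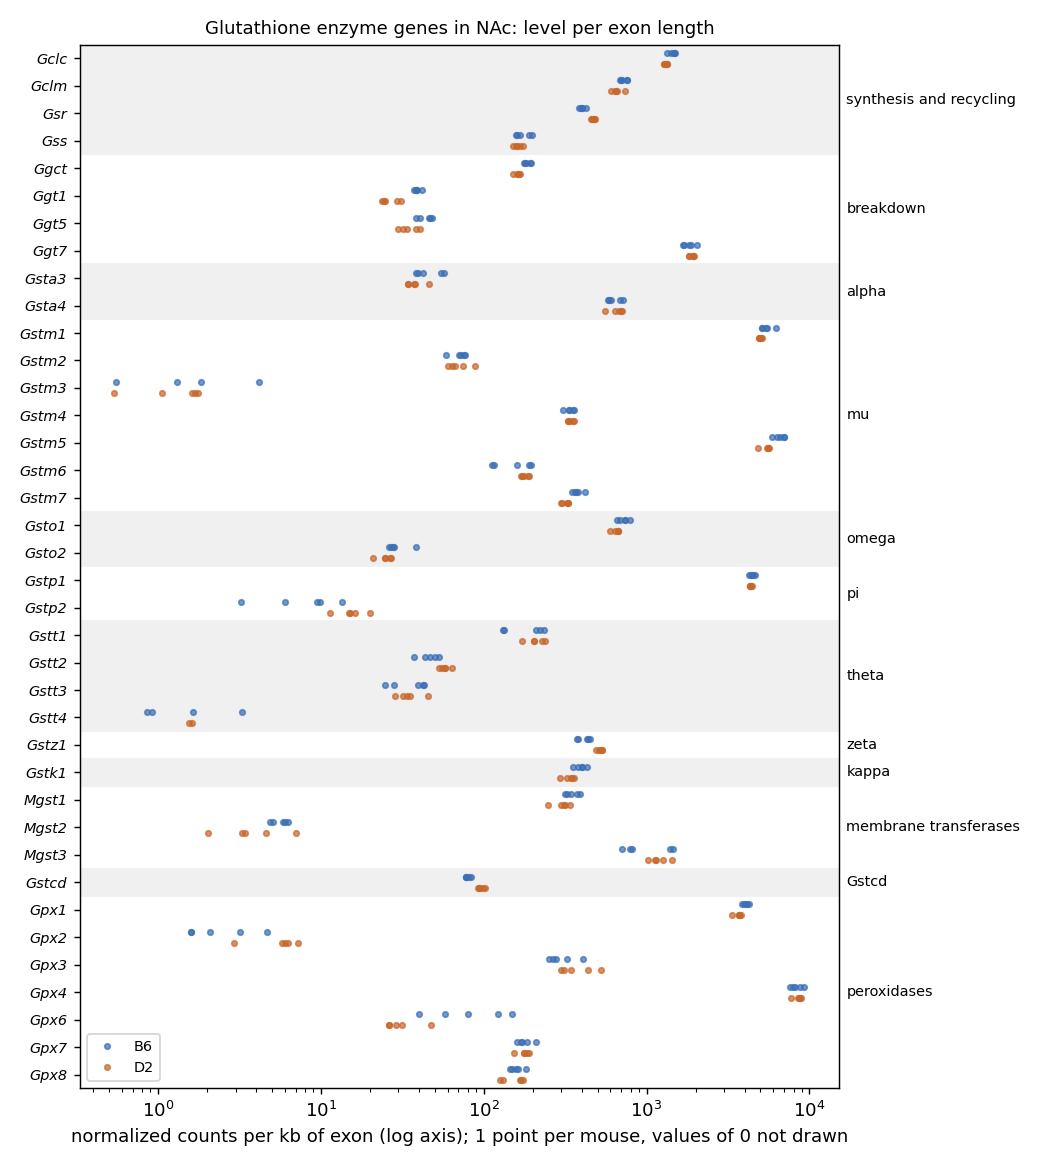
Normalized counts per kb of exon (log axis) for the 38 glutathione enzyme genes, 1 point per mouse, B6 in blue and D2 in orange, grouped by enzyme class. Gpx4, Gstm5 and Gstm1 lie highest in both strains (means 8433, 5986 and 5238 per kb), while Gstm3, Gstt4, Gpx2, Mgst2 and Gstp2 lie lowest.

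Of the 38 genes, 5 were higher in D2 (Gsr, Gstcd, Gstt2, Gstz1, Gpx2) and 9 were lower (Gclc, Ggct, Ggt1, Ggt5, Gstk1, Gstm5, Gstm7, Gpx1, Gpx6), by edgeR's quasi-likelihood test at a Benjamini-Hochberg adjusted p under 0.05 over the whole table. These 14 genes were 36.8% of the members. Among all genes tested 18.3% were called, 8.50% higher and 9.83% lower. Among genes with a mean of at least 100 normalized counts 23.8% were called, against 12 of the 31 members at that level (38.7%). The median log2 fold change (D2 against B6) was -0.08 over the 38 members and 0.00 over all genes, and over the 31 members with at least 100 normalized counts it was -0.02. In 8 members the values of the strains did not overlap, against 16.0% of genes in the table, and all 8 were called (Gsr, Gstcd, Gstz1, Ggct, Ggt1, Gstm5, Gstm7, Gpx1). The counts depended on the scaling: with libraries scaled by total counts, 5 members were higher and 5 lower. Without B6 libraries 3 and 5, 6 were higher and 10 lower. The counts over all genes moved too, from 2541 higher and 2937 lower. They were 3012 and 2468 with total counts, and 2893 and 2852 without B6 libraries 3 and 5.

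Most of the differences were small. Among the 12 called members with a mean of at least 100 normalized counts, log2 fold changes ran from -0.55 (Ggt1) to 0.32 (Gstt2). The larger values, -1.48 for Gpx6 and 1.10 for Gpx2, belonged to genes with low counts. In the plot of log2 fold changes by class, the breakdown genes lay on the lower side except Ggt7, and the members higher in D2 came from separate classes.

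**Figure D2:**
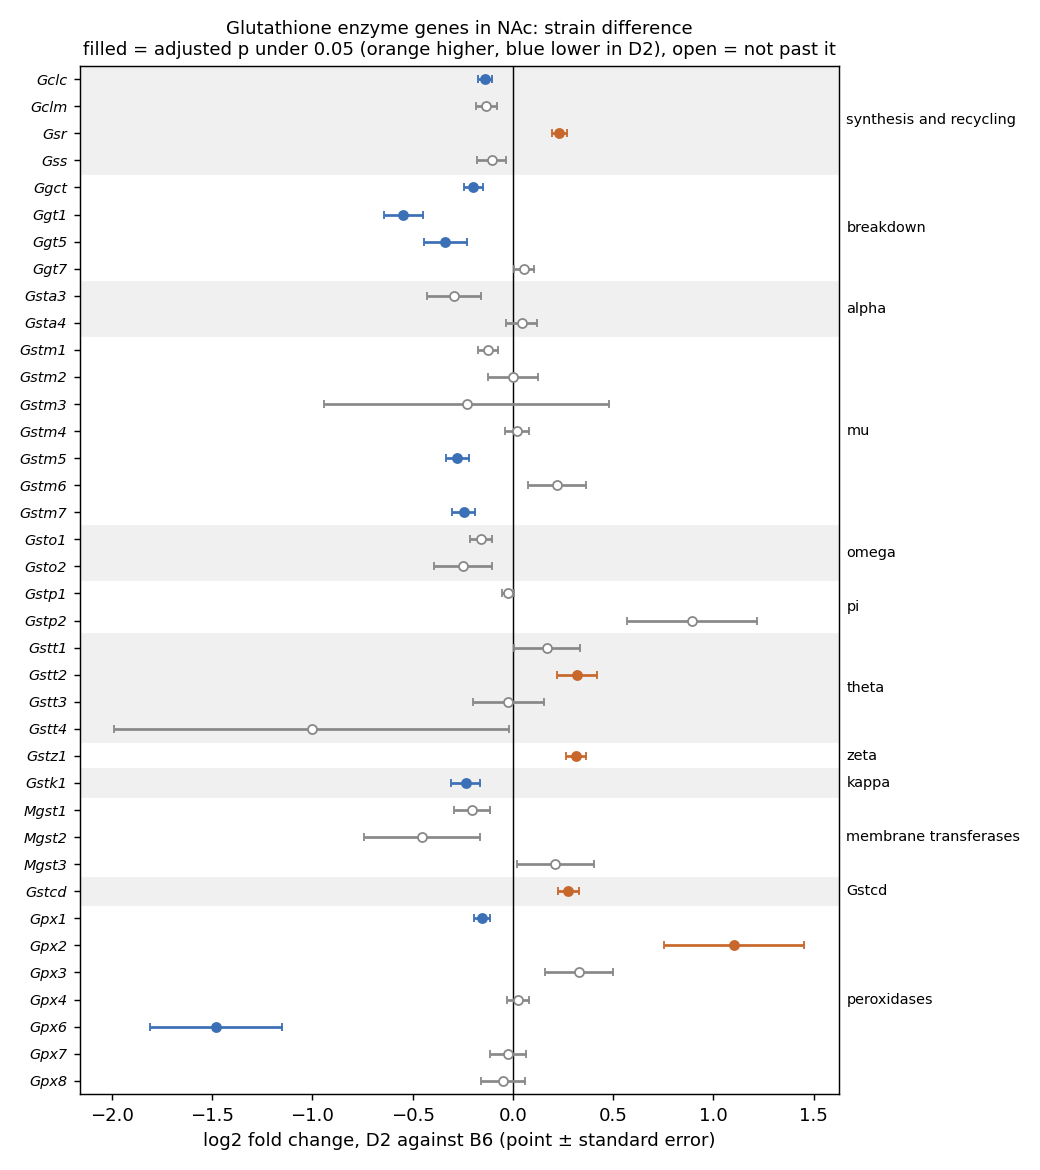
Log2 fold change of D2 against B6 with its standard error for the 38 glutathione enzyme genes by class, n = 5 mice per strain. Filled points passed the adjusted p threshold (5 higher in orange, 9 lower in blue) and open points did not. Gstt4, Gstm3, Gpx2, Gpx6, Gstp2 and Mgst2 have the widest error bars.

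Several glutathione genes are known targets of Nrf2, which binds the antioxidant response element. The core of that element, TGACNNNGC, was looked for on both strands from 250 bases before to 50 after the start of each gene's canonical transcript (GRCm39). It was present in 5 of the 38 members (13.2%) and in 2713 of 21770 protein-coding promoters (12.5%), so these members held it about as often as promoters in general. Of the 5, Ggct, Ggt1 and Gstm5 were lower in D2, and Gclm and Gsta3 did not pass the threshold. The matches are shown 5′ to 3′ on the strand that carries the core, with the core in capitals and 5 flanking bases on each side, because they are the sequence behind that count. The Gclm match is at chr3:122039072-122039080, the Ggct match at chr6:54970018-54970026, the Ggt1 match at chr10:75404460-75404468, the Gsta3 match at chr1:21310688-21310696 and the Gstm5 match at chr3:107803128-107803136. Those of Gsta3 and Gstm5 are on the gene's own strand and the others on the opposite strand. A match is no more than the presence of these letters.
Gclm: agagtTGACGGTGCgcccg
Ggct: cccacTGACGTCGCttttc
Ggt1: agcagTGACCCAGCtcctc
Gsta3: aggcaTGACATTGCatttt
Gstm5: cccacTGACCACGCggagg

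Of the synthesis and recycling genes, Gclc was lower in D2 by a small margin, Gsr was higher, and Gclm and Gss did not pass the threshold. Values per mouse are given in the order of replicates 1 to 5. Gclc (chr9:77661797-77701770, plus strand), the catalytic subunit of the rate-limiting ligase, had 9248, 9194, 8859, 9392 and 8358 normalized counts in B6 and 8319, 8001, 8369, 8017 and 8220.0 in D2. All but 1 of the B6 mice lay above the D2 mice, with B6 mouse 5 just under the highest D2 value. The means were 9010.1 ± 414 and 8185 ± 169.8 (SD, n = 5 each), a log2 fold change of -0.14 (SE 0.036, edgeR adjusted p = 0.017). With total-count scaling this call was lost (edgeR adjusted p = 0.0957).

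Gclm (chr3:122039126-122065061, plus strand), the modifier subunit, had 6021, 6037, 5556, 5631 and 5429 normalized counts in B6 and 5866, 4790.0, 5184, 5086 and 5242 in D2. D2 mouse 1 lay among the B6 mice and the other D2 mice lay below them. Its log2 fold change of -0.13 (SE 0.052) was close to that of Gclc and did not pass the threshold (edgeR adjusted p = 0.11), but without D2 mouse 1 it did (-0.18, edgeR adjusted p = 0.0170). Gss (chr2:155405096-155455505, minus strand), which completes the tripeptide, had 1097, 1155, 1372, 1114 and 1311 in B6 and 1214, 1109, 1149, 1048 and 1099 in D2. The higher B6 values of Gss were those of mice 3 and 5, the strains overlapped, and the log2 fold change was -0.11 (SE 0.072, edgeR adjusted p = 0.37).

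Gsr (chr8:34142551-34188192, plus strand), glutathione reductase, had 2791, 2658, 2731, 2960.5 and 2805 normalized counts in B6 and 3371, 3216, 3147, 3315 and 3322 in D2. The lowest D2 value exceeded the highest B6 value. The mean rose from 2789 ± 112 in B6 to 3274 ± 90.8 in D2 (SD, n = 5 each), 17.4% higher, with a log2 fold change of 0.23 (SE 0.038, edgeR adjusted p = 0.00085).

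**Figure D3:**
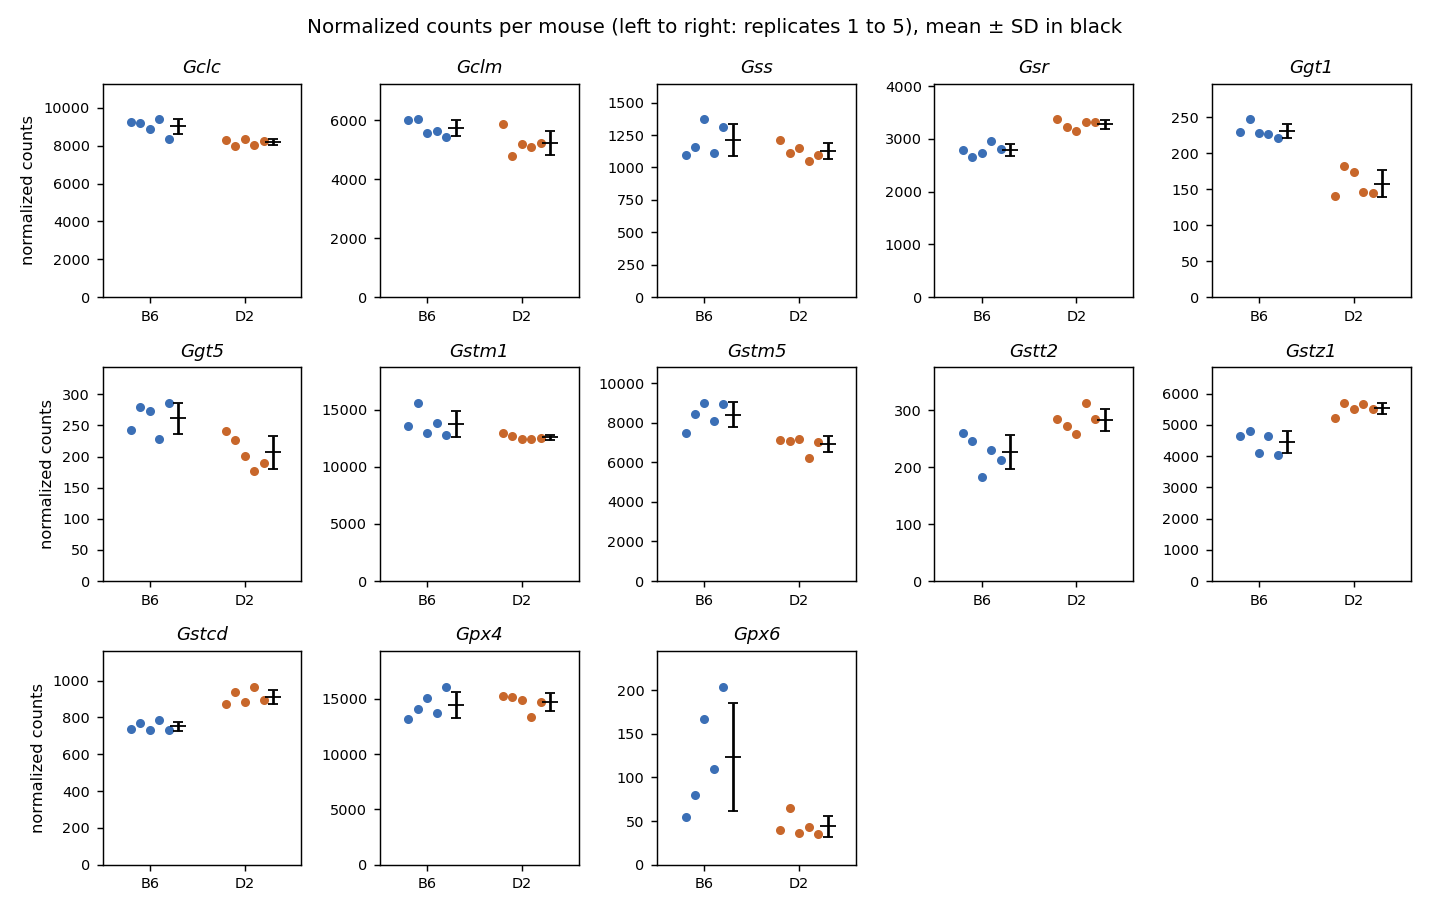
Normalized counts of 13 glutathione enzyme genes in each of 5 B6 (blue) and 5 D2 (orange) mice, replicates 1 to 5 from left to right, with the mean and SD in black, on axes that start at 0. Gsr, Gstz1 and Gstcd lie higher in every D2 mouse, Ggt1 and Gstm5 lie lower in every D2 mouse, and Gpx4 overlaps (means 14404 and 14674).

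Of the 4 breakdown genes, Ggct, Ggt1 and Ggt5 were lower in D2 and Ggt7 did not pass the threshold. Ggt1 (chr10:75387268-75422248, plus strand) encodes the gamma-glutamyl transferase that cleaves extracellular glutathione at the cell surface. It had 229.7, 247, 228, 227 and 221 normalized counts in B6 and 140.4, 183, 174, 147 and 145 in D2, with no overlap. Its mean fell from 231 ± 9.82 to 158 ± 19.2 (SD, n = 5 each), a change of -31.6%, and a log2 fold change of -0.55 (SE 0.097, edgeR adjusted p = 0.0014). Among members with at least 100 normalized counts this was the largest difference.

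Ggt5 (chr10:75425168-75453034, plus strand), a related transferase that acts on leukotriene C4 and glutathione, lies next to Ggt1. It had 242, 279, 273, 228 and 286 normalized counts in B6 and 240.4, 227, 201, 177 and 189.7 in D2, so the strains overlapped at D2 mouse 1 and B6 mouse 4. Its log2 fold change of -0.34 (SE 0.11, edgeR adjusted p = 0.045) was near the threshold. The call was lost without any 1 of B6 mice 2, 3 or 5 or D2 mice 3, 4 or 5, with values between -0.40 and -0.29 over all single omissions and adjusted p up to 0.106. It was also lost without B6 mice 3 and 5 (-0.27, edgeR adjusted p = 0.171) and with total-count scaling.

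Ggct (chr6:54959246-54969942, minus strand), the gamma-glutamylcyclotransferase that acts on gamma-glutamyl amino acids inside the cell, had 1433 to 1574 normalized counts in B6 and 1221 to 1357 in D2, without overlap. Its log2 fold change was -0.20 (SE 0.048, edgeR adjusted p = 0.011). Ggt7 (chr2:155331452-155360157, minus strand) was the abundant member of this group, with a mean of 10875 ± 876 in B6 and 11307 ± 378 in D2 (SD, n = 5 each). Its log2 fold change was 0.06 (SE 0.051, edgeR adjusted p = 0.53), without B6 mice 3 and 5 it was 0.13 (edgeR adjusted p = 0.0436), and with the cortex marker covariate it was 0.03 (edgeR adjusted p = 0.622).

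The mu class transferases lie together on chromosome 3, and of the 7 measured, 2 were lower in D2, none was higher and 5 did not pass the threshold. Gstm5 (chr3:107803137-107806005, plus strand), a mu class enzyme known from brain and testis, had 7495, 8451, 8996, 8107 and 8963 normalized counts in B6 and 7147, 7099, 7194, 6224 and 7008 in D2. The lowest B6 mouse was above the highest D2 mouse. Its mean fell from 8403 ± 628 to 6934 ± 403 (SD, n = 5 each), a change of -17.5% (log2 fold change -0.28, SE 0.056, edgeR adjusted p = 0.0034). In normalized counts this was also the largest difference among the called transferases. Gstm7 (chr3:107832278-107839187, minus strand), close to Gstm5, had 1466 to 1746 normalized counts in B6 and 1243 to 1384 in D2 (log2 fold change -0.25, SE 0.056, edgeR adjusted p = 0.0079).

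Gstm1 (chr3:107919380-107925380, minus strand), the main mu class enzyme of liver and of astrocytes, had 13608, 15586, 12929, 13817 and 12785 normalized counts in B6 and 12928, 12715, 12417, 12414 and 12526 in D2. The ranges met at the lower B6 values, mice 3 and 5, and the B6 spread (SD 1118, mean 13745) was wider than that in D2 (SD 220.3, mean 12600.2). The log2 fold change was -0.13 (SE 0.049, edgeR adjusted p = 0.10). It passed without B6 mouse 5 (-0.16, edgeR adjusted p = 0.0404) and without B6 mice 3 and 5 (-0.19, edgeR adjusted p = 0.00965), but not with the cortex marker covariate (-0.09, edgeR adjusted p = 0.0620). Gstm4, at 658 to 775 normalized counts in B6 and 713 to 771 in D2, and Gstm2, at 112 to 147 and 116 to 168, showed log2 fold changes of 0.02 (SE 0.060) and -0.00 (SE 0.12). Gstm6 had 0.22 (SE 0.14, edgeR adjusted p = 0.36), and Gstm3, with under 8 normalized counts in every library, had -0.23 (SE 0.71).

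Among the other cytosolic transferases, Gstz1 and Gstt2 were higher in D2 and the alpha, omega and pi classes gave no call. Gstz1 (chr12:87193898-87225026, plus strand) encodes maleylacetoacetate isomerase, the zeta class enzyme of tyrosine breakdown. It had 4653, 4791, 4087, 4645 and 4038 normalized counts in B6 and 5233, 5698, 5516, 5682 and 5494 in D2. The strains were fully apart, with B6 mice 3 and 5 the lowest. The mean rose from 4443 ± 353 to 5525 ± 188 (SD, n = 5 each), a log2 fold change of 0.31 (SE 0.052, edgeR adjusted p = 0.0008). Without B6 mice 3 and 5 it was 0.23 (edgeR adjusted p = 0.001).

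Gstt2 (chr10:75666948-75673258, minus strand), a theta class transferase, had 259.6, 247, 183, 229.9 and 213 normalized counts in B6 and 285, 273, 259, 313 and 284 in D2. The strains met where B6 mouse 1 and D2 mouse 3 were almost equal. Its log2 fold change of 0.32 (SE 0.10, edgeR adjusted p = 0.047) was just past the threshold, and the call was lost without any 1 of B6 mice 3, 4 or 5 or of the 5 D2 mice, with an astrocyte marker level as covariate, and without B6 mice 3 and 5 (0.20, edgeR adjusted p = 0.194). With the cortex marker covariate it was 0.38 (edgeR adjusted p = 0.00479). In the same class, Gstt1 gave 0.17 (SE 0.17, edgeR adjusted p = 0.56), Gstt3 gave -0.02 (SE 0.18), and Gstt4 was at 0 in 1 B6 and 3 D2 libraries, a count that allows up to 3 counts per library.

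The pi class gene Gstp1, an enzyme of oligodendrocytes and astrocytes, had closely spaced values of 6902 to 7534 normalized counts in B6 and 7018 to 7241 in D2 (log2 fold change -0.02, SE 0.031, edgeR adjusted p = 0.67). Its neighbour Gstp2 was read at 3.86 to 16.1 normalized counts in B6 and 13.7 to 23.9 in D2 (log2 fold change 0.89, SE 0.32, edgeR adjusted p = 0.079). It passed without B6 mouse 3 (1.11, edgeR adjusted p = 0.0401) and without B6 mice 3 and 5 (1.29, edgeR adjusted p = 0.0297), but not with the cortex marker covariate (0.83, edgeR adjusted p = 0.0653). Gsto1, an omega class enzyme that also reduces dehydroascorbate, had 2558 ± 185 in B6 and 2293 ± 116 in D2 (SD, n = 5 each), with a log2 fold change of -0.16 (SE 0.056, edgeR adjusted p = 0.070). Its result was near the threshold and it passed without B6 mouse 3 (-0.20, edgeR adjusted p = 0.0248), without B6 mice 3 and 5 (-0.22, edgeR adjusted p = 0.00893) and in DESeq2 (adjusted p = 0.0451). It also passed with the cortex marker covariate (-0.12, edgeR adjusted p = 0.0394) and with filters on low counts. With total-count scaling it was further from passing (-0.13, edgeR adjusted p = 0.189). Gsto2 gave -0.25 (SE 0.14, edgeR adjusted p = 0.29). In the alpha class, Gsta4, which acts on 4-hydroxynonenal, gave 0.04 (SE 0.078) and Gsta3 gave -0.29 (SE 0.13, edgeR adjusted p = 0.17). Without B6 mice 3 and 5, Gsta3 passed at -0.44 (edgeR adjusted p = 0.0322), and with the cortex marker covariate it was at -0.22 (edgeR adjusted p = 0.203).

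Gstcd (chr3:132687513-132797914, minus strand), a transferase C-terminal domain protein whose enzyme activity is uncertain, had 736, 770.4, 731, 788 and 732 normalized counts in B6 and 873, 938, 881, 965 and 896 in D2. The strains did not overlap. The mean rose from 752 ± 26.0 to 911 ± 39.3 (SD, n = 5 each), a log2 fold change of 0.28 (SE 0.053, edgeR adjusted p = 0.0023). The mitochondrial and peroxisomal kappa class gene Gstk1 was lower in D2, at 534 ± 41.3 against 629 ± 44.7 in B6 (log2 fold change -0.24, SE 0.074, edgeR adjusted p = 0.044). The strains overlapped for Gstk1, and the call was lost without any 1 of mice 2 to 5 of either strain, with total-count scaling, and without B6 mice 3 and 5.

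None of the 3 membrane transferases passed the threshold. Mgst1 of the endoplasmic reticulum and outer mitochondrial membrane gave -0.20 (SE 0.089, edgeR adjusted p = 0.15), the low-count Mgst2 gave -0.45 (SE 0.29, edgeR adjusted p = 0.34) and Mgst3 gave 0.21 (SE 0.19, edgeR adjusted p = 0.53). Mgst3 is treated with the genes that moved with B6 mice 3 and 5.

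Of 7 glutathione peroxidases, 1 was higher in D2, 2 were lower and 4 did not pass the threshold. Gpx4 (chr10:79883000-79892273, plus strand) had 13162, 14096, 15024, 13681 and 16056 normalized counts in B6 and 15272, 15178, 14892, 13326 and 14701 in D2. The strains overlapped throughout, with means of 14404 ± 1148 and 14674 ± 787 (SD, n = 5 each) and a log2 fold change of 0.03 (SE 0.056, edgeR adjusted p = 0.81). Gpx1 (chr9:108216102-108217546, plus strand), the cytosolic peroxidase for hydrogen peroxide, had 5563 to 6117 in B6 and 4837 to 5459 in D2, with no overlap (log2 fold change -0.15, SE 0.040, edgeR adjusted p = 0.017). With total-count scaling the Gpx1 call was narrowly lost (edgeR adjusted p = 0.0512). Gpx3, the secreted plasma peroxidase, gave 0.33 (SE 0.17, edgeR adjusted p = 0.22) and passed with the cortex marker covariate (0.41, edgeR adjusted p = 0.0474) but not without B6 mice 3 and 5 (0.19, edgeR adjusted p = 0.538). Gpx7 and Gpx8, peroxidases of the endoplasmic reticulum, gave -0.02 (SE 0.091) and -0.05 (SE 0.11).

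The low-count peroxidases moved the furthest. Gpx6 (chr13:21496295-21503794, plus strand), a peroxidase known from olfactory tissue, had 55.0, 79.6, 167, 110.1 and 204 normalized counts in B6 and 39.5, 65.4, 35.9, 43.2 and 35.7 in D2. It was singled out after its values were seen, as its mean was under the 100 normalized counts set for values per mouse. B6 mouse 1 lay below D2 mouse 2, and the other B6 mice were above every D2 mouse. The mean fell from 123 ± 61.5 to 43.9 ± 12.4 (SD, n = 5 each), a change of -64.2% (log2 fold change -1.48, SE 0.33, edgeR adjusted p = 0.0067), and without B6 mice 3 and 5 the log2 fold change was -0.89 (SE 0.26, edgeR adjusted p = 0.0293). Gpx2, the peroxidase of gut epithelium, had 5.14 to 15.0 in B6 and 9.45 to 23.5 in D2 (log2 fold change 1.10, SE 0.35, edgeR adjusted p = 0.046). Only a few counts per library lie behind the Gpx2 value, and its call was lost without any 1 of B6 mice 1, 2, 3 or 5 or of D2 mice 1, 2, 4 or 5, with an astrocyte marker level as covariate, and without B6 mice 3 and 5.

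B6 mice 3 and 5 stood together in many members. Both lay above the other B6 mice in 6 members (Ggt7, Mgst3, Gstm5, Gpx4, Gpx6, Gss) and below them in 15, that is in 55.3% of the 38, and in 41.8% of all genes. Among genes with a mean of at least 100 normalized counts the shares were 64.5% of members and 55.5% of all genes. Mgst3, Gpx6, Gstm6, Gstt1 and Gstt3 were singled out after their values were seen. Mgst3 had 2531, 2933, 4969.9, 2850.4 and 5185 normalized counts in B6 and 4068, 4534, 5099, 3661 and 4025 in D2. B6 mice 3 and 5 lay at the top of the D2 range or above it, and the other B6 mice lay below every D2 mouse. Without them the log2 fold change of Mgst3 was 0.63 (SE 0.093, edgeR adjusted p = 0.000413), but with the cortex marker level as a covariate it was 0.13 (SE 0.081, edgeR adjusted p = 0.288), so it was called under the former only. Gpx6, above, was highest in B6 mice 3 and 5.

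Gstm6, Gstt1 and Gstt3 were instead lowest in B6 mice 3 and 5. Gstm6 had 725, 705, 419.5, 598 and 434 normalized counts in B6 and 714, 639.8, 634, 704 and 662 in D2. For Gstt1 the counts were 630.1, 669, 377, 599 and 379.6 in B6 and 683, 579, 493, 655 and 579 in D2, and for Gstt3 they were 163, 165, 95.1, 153 and 109 and 175, 110.4, 123, 131 and 137. In each gene both B6 libraries lay below every D2 mouse. With the cortex marker level as a covariate, Gstm6 (0.37, SE 0.064, edgeR adjusted p = 0.000483) and Gstt1 (0.34, SE 0.079, edgeR adjusted p = 0.00461) were higher in D2. Without both libraries their log2 fold changes were -0.01 (edgeR adjusted p = 0.947) and -0.08 (edgeR adjusted p = 0.66), so the strain difference of these genes depended on how the 2 libraries were handled.

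**Figure D4:**
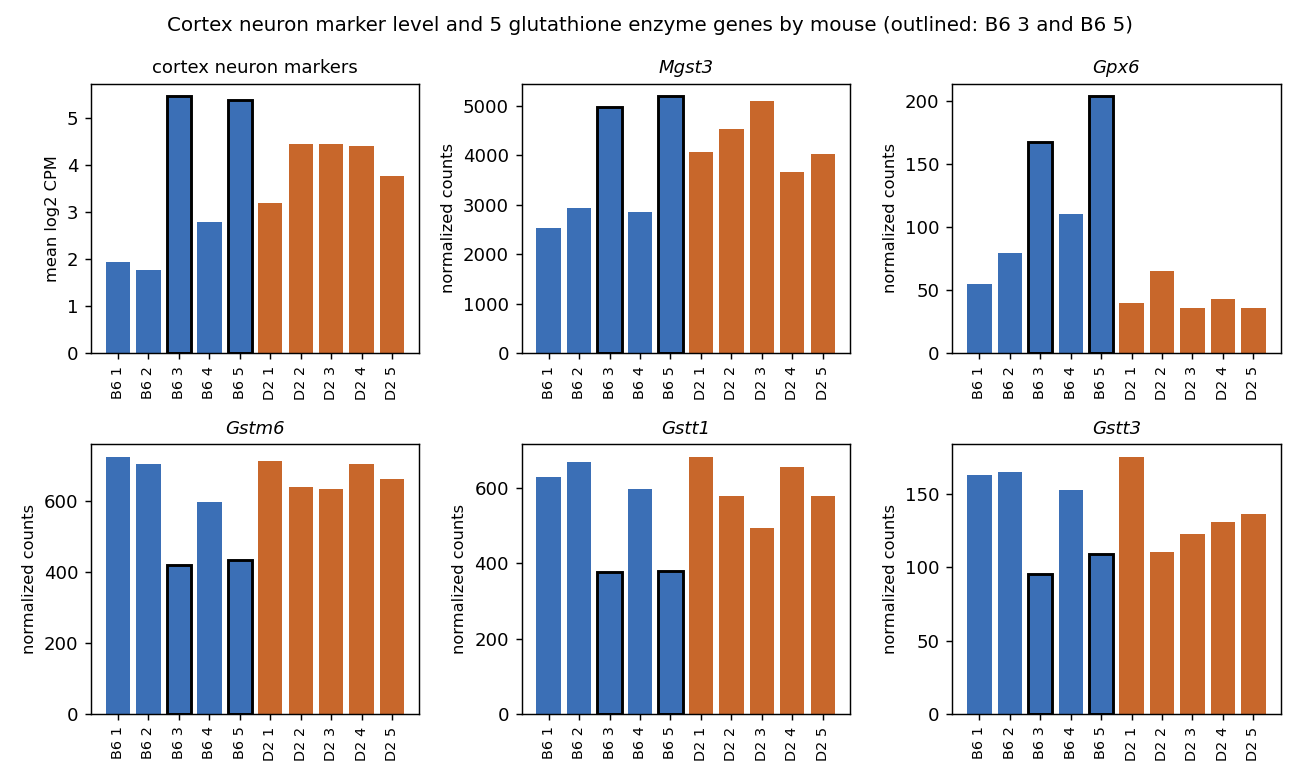
Mean log2 CPM of 6 cortex neuron markers and normalized counts of Mgst3, Gpx6, Gstm6, Gstt1 and Gstt3 in each mouse, B6 in blue and D2 in orange, with bars from 0 and B6 mice 3 and 5 outlined. The outlined bars are the highest for the markers (5.46 and 5.38) and Gpx6 (167 and 204), and the lowest for Gstm6 (419.5 and 434), Gstt1 (377 and 379.6) and Gstt3 (95.1 and 109).

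Some members share sequence with other genes, which limits what their counts measure. Of all 100-base stretches of the canonical transcript, 55.6% in Gpx4 also occur in another gene (Gm63662 or the pseudogene Gpx4-ps2), 62.6% in Gstp2 and 47.3% in Gstp1 (each other or Gstp-ps), 23.8% in Gstt3, 17.8% in Gstm2 and 13.8% in Gstm3. Gstm1 shared 7.18%, Gpx2 5.19% and Gstm6 0.928%, and the other members none. Counts of Gstp2, which is far below Gstp1, are therefore uncertain. Genes on the opposite strand overlap 85.3% of the exon bases of Gpx1 (Gm57050) and 85.0% of Gpx3 (Tnip1). They overlap 32.7% of Gss and 27.7% of Gstz1 (Gm6566, Pomt2 and Tmed8). This overlap was 14.6% in Gstm5, 13.2% in Gpx4, 12.6% in Gclm, 12.0% in Gsto1 and 11.1% in Ggt7. In Gsta3 it was 8.68%, in Gstt3 5.99%, in Ggt1 5.80%, in Gstcd 3.12% and in Gstm1 1.79%. The library kit was stranded, but the strand setting of the counting was not given in the sources used here, so reads of such pairs may not be told apart. Genes on the same strand overlap 13.6% of the exon bases of Gstt3, 6.18% of Gclm and 2.08% of Gsr, and strand cannot separate those reads.

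Genes starting within 250 kb of a called member, members left out, numbered 156, and 14 were higher and 24 lower in D2 (24.4% called). This is near the share among all genes (18.3%, or 23.8% at a mean of at least 100 normalized counts). Near Gstz1, 3 of 16 genes were higher and 4 lower, and Tmed8, which overlaps it, had a log2 fold change of -0.20 against 0.31 for Gstz1. Near Gsr, 1 of 8 was higher and 2 were lower, with Ubxn8, 10097 bp away, at 0.32. On chromosome 10, Ggt1 and Ggt5 were lower and Gstt2, farther along, was higher, and of 12 genes near Ggt1 that are no members, 1 was higher (Susd2, 0.54) and 3 were lower, among them Upb1 (-0.58) and Adora2a (-0.39). Of 12 such genes near Gstm5, 2 were lower and none was higher.

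A list of 63 other genes of glutathione and thiol metabolism was read beside the enzymes, and 11 were higher and 11 lower in D2 (34.9% called, against 18.3% of all genes and 23.8% of those with a mean of at least 100 normalized counts), with a median log2 fold change of -0.01. The regulators Nfe2l2, which encodes Nrf2, and its inhibitor Keap1 did not pass the threshold, at -0.07 (SE 0.074, edgeR adjusted p = 0.59) and 0.02 (SE 0.029, edgeR adjusted p = 0.77). Slc7a11, the cystine importer that supplies glutathione synthesis, gave -0.20 (SE 0.088, edgeR adjusted p = 0.15). Among users of glutathione, Glo1, the glyoxalase that clears methylglyoxal, rose from 7405 ± 247 normalized counts in B6 to 14187 ± 456 in D2 (SD, n = 5 each), a log2 fold change of 0.94 (SE 0.034, edgeR adjusted p = 1.6e-09), larger than in any called enzyme member with at least 100 normalized counts. Glrx, the glutaredoxin that removes glutathione from proteins, rose from 1297 ± 107 to 1659 ± 141 (0.35, SE 0.072, edgeR adjusted p = 0.0035). Abcc1, which exports glutathione conjugates, fell from 3771 ± 113 to 2511 ± 112 (-0.59, SE 0.040, edgeR adjusted p = 3.4e-07).

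By role, the glutaredoxins and thioredoxins gave 3 higher and 0 lower of 10. The other enzymes of peroxide and superoxide removal gave 0 higher and 2 lower of 9 (Prdx6 and Cat). The NADPH suppliers gave 2 higher (Pgd and Idh1) and 2 lower (Me1 and Nnt) of 6, with Nnt at a low mean of 67.5 normalized counts. Of 5 genes of cysteine supply, 2 were lower and none was higher. Of 5 eicosanoid genes (Hpgds, Ptges, Ptgds, Ltc4s and Alox5ap), 1 was higher and 2 were lower. Ptges, a prostaglandin E synthase, rose (0.54, SE 0.10, edgeR adjusted p = 0.0023), and Ltc4s, which makes leukotriene C4 from glutathione, fell (-0.33, SE 0.097, edgeR adjusted p = 0.030).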

How the data were processed

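The authors deposited raw read counts per gene and library. Per the labels and methods, reads were trimmed, aligned to the C57BL/6J genome (GRCm39) with STAR 2.7.10b, handled with SAMtools 1.6 and counted with featureCounts. D2 reads that differ from that genome may align less often. Genes were named from GENCODE M39, and 364 of 29883 were not in it.

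From the counts, strains were compared with edgeR 4.0.16 (R 4.3.3), TMM factors 0.970 to 1.02, a quasi-likelihood test with strain as factor, two-sided, Benjamini-Hochberg adjusted over all genes. No further filter was applied. Normalized counts are counts scaled to the mean effective library size, with errors as SD over mice. Marker lists were compared as mean log2 CPM (prior count 2) by exact permutation over 252 assignments.

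Alternatives were DESeq2 1.42.0, other scalings, filters on low counts, marker covariates, a replicate block and omitted libraries. Leaving out B6 libraries 3 and 5 was chosen after seeing the data. The closest libraries, B6 3 and 5, still differed by a mean chi-square of 4.95 per gene and were kept as separate replicates. The scripts were tested on simulated data, with changed genes not matched to the members in level. There edgeR found 5 of 68 genes changed by a log2 of 0.25, 39 of 66 at 0.5 and 53 of 66 at 1, with 3 false calls. DESeq2 found 22, 43 and 58 of the same genes, with 42 false calls. A member that did not pass the threshold may therefore still differ by a small amount.

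Values per mouse were given for called members with at least 100 normalized counts and an absolute log2 fold change of at least 0.25, for Gclc, Gclm, Gss and Gsr, and for the 3 members highest per kb. Gpx6, Mgst3, Gstm6, Gstt1 and Gstt3 were added after their values were seen. Members, lists and rules were chosen with earlier results of these data known. Sequence came from GRCm39.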

Additional observations from a re-analysis of the deposited data

Results flagged for a closer look

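In 4 of 76 groups of 5 values (38 genes in each of the strains) 1 mouse lay far from the others, where chance gives about 1 in 20. These were Gstm5 in D2 mouse 4 (6224 normalized counts, the others 7008 to 7194), Gpx1 in D2 mouse 4 (4837, the others 5313 to 5459), Gsto2 in B6 mouse 2 (99.3, the others 67.4 to 73.0) and Gpx6 in D2 mouse 2 (65.4, the others 35.7 to 43.2). Without D2 mouse 4, Gstm5 and Gpx1 were still called lower in D2.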

How the results depend on the processing

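Of 279 values of the 14 called genes under an alternative, 235 kept direction and call. The 8 genes Gsr, Gstcd, Gstz1, Ggct, Ggt1, Gstm5, Gstm7 and Gpx6 were called under every alternative run at the 0.05 threshold. The number of members higher in D2, 5, became 3 with the replicate block, 3 with the astrocyte marker covariate, 8 with the cortex neuron marker covariate, 3 at an adjusted p under 0.01, and 3 to 4 without 1 library. The number lower, 9, became 5 with total counts, 4 at an adjusted p under 0.01, and 7 to 10 without 1 library. Over all genes, 2541 higher and 2937 lower became 3900 and 3893 with the cortex covariate and 1579 and 1836 at an adjusted p under 0.01. They became 2244 and 2487 with the replicate block, 2352 and 2782 with the astrocyte covariate, and 3012 and 2468 with total counts. Of the other thiol genes, 6 to 12 were higher and 8 to 11 lower without 1 library (6 higher without B6 mouse 3, 7 without D2 mouse 2), and 7 were lower with total counts. Total counts moved the median log2 fold change of all genes by 0.03. The causes were not tested. Replicate numbers did not pair the mice: correlations of same-numbered mice ran from -0.417 to 0.372, and 2 of 5 B6 mice correlated best with their own number. The block gave 3 members higher and 7 lower. Genes not called in the comparison changed sign under some alternatives. Without B6 mice 3 and 5 the log2 fold changes were -0.033 for Gsta4, -0.027 for Gstm4, -0.013 for Gstm6, 0.0010 for Gss and -0.083 for Gstt1. With total counts they were 0.030 for Gstm2, 0.0051 for Gpx7, 0.0069 for Gstp1 and 0.0049 for Gstt3, and with the cortex covariate 0.047 for Gstm2, 0.23 for Gstm3, 0.0088 for Gpx7 and 0.13 for Gstt3. Gstm2 was at 0.0016 with DESeq2 size factors and 0.0071 with the astrocyte covariate. Leaving out 1 library gave ranges of -0.090 to 0.051 for Gstm2, -0.55 to 0.51 for Gstm3, -0.017 to 0.046 for Gstm4, -0.0040 to 0.061 for Gpx4, -0.067 to 0.037 for Gpx7, -0.10 to 0.014 for Gpx8 and -0.13 to 0.054 for Gstt3. Depth limits Gstm3, Gstt4, Gstp2, Gpx2 and Mgst2, which had few counts per library.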
